A study of Mus musculus with 9 samples.

Results

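The Bcl2 family sets whether a cell goes through mitochondrial apoptosis, and 10 of its genes were followed here in mouse embryonic cortex at stage E13.5. They were taken by name: the anti-apoptotic genes Bcl2, Bcl2l1 (Bcl-xL) and Mcl1, the effectors Bax and Bak1, and the BH3-only genes Bid, Bbc3 (Puma), Pmaip1 (Noxa), Bcl2l11 (Bim) and Bmf. Of the 10 genes, 9 had probe sets that the platform annotation gives to that gene alone, 103 probe sets in all among 318760 with a single gene symbol. Bax had no probe set under its symbol there and was not analysed here. Probe sets were tested if their mean log2 signal over all 9 arrays passed 5.64, the midpoint of the array's probe sets. A probe set could thus pass through a group in which it was high. Of the 103, 95 passed. The level of a gene is the mean log2 signal of these probe sets, and the 9 genes were tested among 16854.

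RNA of dissected cerebral cortex was hybridised to Affymetrix mouse exon arrays, which carry probe sets along whole transcripts. There were 9 arrays, 3 for each genotype. The controls are labelled wild type, the second group carries the genotype Sfpq+/- (heterologous knock-out in the titles), and the third Sfpq-/- (homologous knock-out). Sfpq encodes a nuclear RNA-binding protein that takes part in transcription and RNA processing. The sources used here do not give the deleted part of Sfpq, a Cre driver, the strain or the litters, and in the extraction notes both genotypes listed after control read Sfpq+/-. Whether replicates stem from different litters is not stated, so the tests reflect only how far these 9 samples spread, which may be partly technical.

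Apoptosis through mitochondria starts when Bax or Bak1 permeabilise the outer mitochondrial membrane and cytochrome c reaches Apaf1 and the caspases. Bcl2, Bcl-xL and Mcl1 hold the effectors in check. BH3-only proteins are induced or activated by stress and by loss of trophic support, bind the anti-apoptotic members and in part activate the effectors directly. In the developing brain this balance removes surplus neurons and damaged progenitors, with Mcl1 known to be needed by cortical progenitors and Bcl-xL by young neurons.

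Sfpq signal, measured on 12 probe sets with a control mean above 10, was between 12.07 and 12.12 in controls, between 11.87 and 12.08 in Sfpq+/- and between 9.99 and 10.31 in Sfpq-/- arrays. It was thus low on every array labelled Sfpq-/- and does not check the Sfpq+/- label. The 9 cortical markers measured were all above 0. Their mean level was 10.34 to 10.38 in controls, 10.41 to 10.50 in Sfpq+/- and 10.18 to 10.25 in Sfpq-/-, where 4 of the 9 fell against control (Fezf2, Lhx2, Neurod6 and Eomes) and none rose. Emx2 (log2 change 0.19, limma adjusted p = 0.181) and Tbr1 (0.14, adjusted p = 0.328) lay above the controls with no overlap and did not pass. Of 12 microglia and macrophage markers, all measured and none at 0, 7 rose in Sfpq-/- against control, and the mean of the list was 7.73 to 7.75 in controls, 7.70 to 7.85 in Sfpq+/- and 7.97 to 8.03 in Sfpq-/-. The part of these cells in the results below was not tested. In bulk tissue, fewer cells of a type and less RNA per cell cannot be told apart. Sex was not matched between groups: 3 arrays were high in Xist, control 1, control 2 and Sfpq-/- 1 (11.48 to 11.79), and the remaining 6 were low (4.90 to 5.87).

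The promoter windows of 3 members are shown because these genes gave the calls described below: Bcl2l11 and Bbc3 hold the probe sets that rose, and Bcl2 is the member that fell. Each window runs from 250 bases before to 50 after a RefSeq start site, in build GRCm38.p6, 5′ to 3′ on the strand of the gene. Capitals mark the FOXO site (TGTTTAC on either strand), the binding motif of the forkhead factors known to activate Bcl2l11 and Bbc3. Bcl2l11 and Bbc3 have several windows, and for each only the window that held this site is printed. Bcl2l1, which was also called, is not shown.
Bcl2l11, chr2:128125788-128126087, plus strand: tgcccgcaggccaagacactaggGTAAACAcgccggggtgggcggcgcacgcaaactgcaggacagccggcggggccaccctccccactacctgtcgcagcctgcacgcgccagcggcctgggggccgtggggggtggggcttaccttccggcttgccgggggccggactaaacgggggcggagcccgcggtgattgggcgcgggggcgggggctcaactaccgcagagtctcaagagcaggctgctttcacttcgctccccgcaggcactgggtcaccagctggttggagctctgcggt
Bbc3, chr7:16310011-16310310, plus strand: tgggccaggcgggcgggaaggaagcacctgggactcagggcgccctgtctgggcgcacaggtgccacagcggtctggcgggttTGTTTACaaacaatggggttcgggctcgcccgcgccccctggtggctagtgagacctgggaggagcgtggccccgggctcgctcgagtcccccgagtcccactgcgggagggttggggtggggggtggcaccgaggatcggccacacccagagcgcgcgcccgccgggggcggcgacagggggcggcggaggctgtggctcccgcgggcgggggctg
Bcl2, chr1:106714241-106714540, minus strand: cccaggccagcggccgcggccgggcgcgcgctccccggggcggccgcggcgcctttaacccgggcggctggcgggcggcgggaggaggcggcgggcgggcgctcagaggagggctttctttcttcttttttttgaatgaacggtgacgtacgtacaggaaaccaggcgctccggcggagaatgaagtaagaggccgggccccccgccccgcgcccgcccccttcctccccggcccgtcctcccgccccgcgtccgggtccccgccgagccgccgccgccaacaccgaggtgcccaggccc

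RefSeq gave 16 promoter windows for 9 of the 10 members, Bax among them, and 2 of these windows held the FOXO site, the 2 that carry capitals above. Over all 32851 windows 3.65% held it. The p53 decamer, searched on both strands, was found in 2 member windows, 1 of Bax and 1 of Bmf, against 8.36% of all windows, and in none of Bbc3. Of the 3 windows of Bbc3 the second, printed here, and the third overlap. No member window held the AP-1 site TGANTCA (7.81% of all), the STAT site TTCNNNGAA (8.3%), the CRE TGACGTCA (1.79%) or the CHOP site (0.2%). The E2F site TTTCGCGC stood in 1 window of Bcl2l1 (0.32% of all) and the Sp1 box GGGCGG in 10 of the 16 (35.66% of all). The 3 windows printed are rich in G and C: 71.0% for Bcl2l11, 74.7% for Bbc3 and 76.0% for Bcl2, against a median of 52.7% over all windows. A match describes letters and is no evidence of binding.

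In Sfpq-/- against control cortex, the BH3-only gene Bcl2l11 rose, the anti-apoptotic gene Bcl2 fell, and the anti-apoptotic gene Bcl2l1 rose. Thus 2 of 9 members were called higher, where 5.98% of all genes were, and 1 lower, where 6.12% were. Arrays of the groups did not overlap for 5 members on the higher side (16.1% of all genes) and 1 on the lower side (10.8%). At an unadjusted p under 0.05 there were 6 members, where 24.2% of all genes were. The median log2 change of the 9 genes was 0.25, and that of all genes was 0.03. All 6 measured pro-apoptotic members had a positive log2 change, between 0.11 and 0.61, but of these only Bcl2l11 passed the test.

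**Figure D1:**
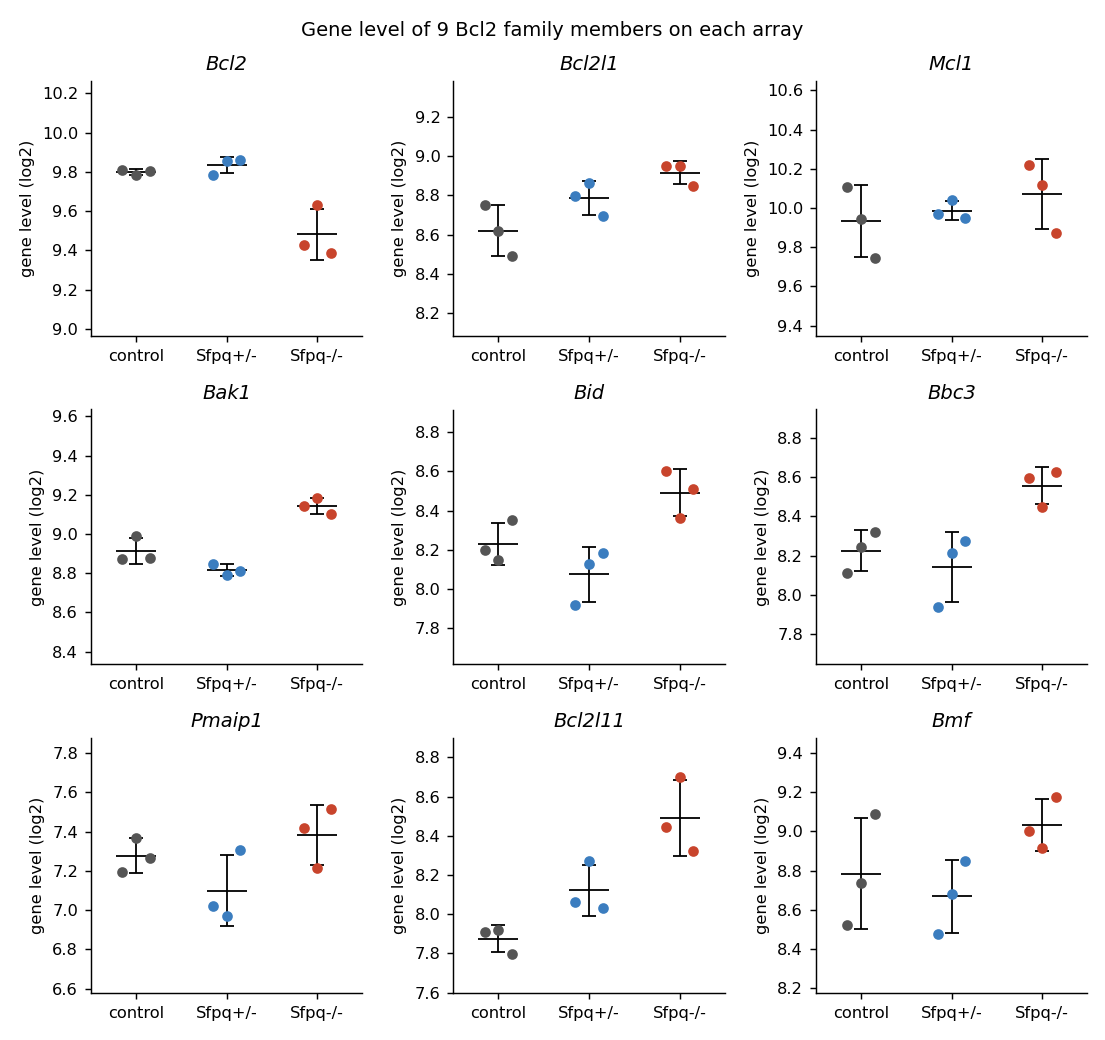
Gene level (log2 signal, mean of the kept probe sets) of the 9 measured members on each of the 9 arrays, with 3 arrays per genotype. Points are arrays, long bars group means and short bars SD (n = 3), and each panel spans the same range of log2 units. The 3 Sfpq-/- arrays lie above the 3 control arrays for Bcl2l11, Bcl2l1, Bak1, Bid and Bbc3 and below them for Bcl2.

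Bcl2l11 encodes Bim, the BH3-only protein that neurons make when trophic support is withdrawn and that can bind every anti-apoptotic member. Its level was 7.91, 7.92 and 7.80 on the control arrays, 8.06, 8.27 and 8.03 on the Sfpq+/- arrays and 8.44, 8.70 and 8.32 on the Sfpq-/- arrays. Every Sfpq-/- array lay above every other array, and every Sfpq+/- array above every control array. The gene rose 1.53-fold in Sfpq-/- against control (log2 change 0.61, SE 0.11, limma adjusted p = 0.00282). It stayed past the threshold in each of the 9 fits that left out 1 array, with log2 changes from 0.51 to 0.70, and under each of the other 8 settings tried, with a highest adjusted p of 0.0273 over all of them.

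Most probe sets shared the rise: 19 of the 20 probe sets of Bcl2l11 had a positive log2 change in Sfpq-/-, with a median of 0.54. No overlap with the controls was seen for 12 (7.65% of all probe sets on the higher side). Their positions within the gene were not known. Among the 6 with a control mean above 9, all were positive, from 0.31 to 0.84. By themselves 2 passed limma's test over 628415 probe sets. Probe set 4902664 was 9.31, 9.59 and 9.47 in controls, 9.48, 9.84 and 9.68 in Sfpq+/- and 10.14, 10.37 and 10.38 in Sfpq-/- (log2 change 0.84, SE 0.15, adjusted p = 0.0261). Probe set 4685497 was 7.88, 8.36 and 7.42 in controls and 9.13, 8.89 and 9.09 in Sfpq-/- (log2 change 1.15, SE 0.23, adjusted p = 0.0436). For both, the Sfpq-/- arrays lay above all others. These single calls were fragile: that of 4685497 was kept only without control 2 among the fits that left out 1 array, and that of 4902664 only without Sfpq+/- 1 and without Sfpq+/- 2, with adjusted p up to 0.169 and 0.0942 in the rest.

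Bcl2, the founding anti-apoptotic member, was 9.81, 9.78 and 9.80 on the control arrays, 9.79, 9.86 and 9.86 on the Sfpq+/- arrays and 9.43, 9.63 and 9.39 on the Sfpq-/- arrays. The controls and Sfpq+/- arrays formed a narrow band, and the 3 Sfpq-/- arrays lay below it. Its log2 change in Sfpq-/- was -0.32 (SE 0.08, limma adjusted p = 0.0239), or 1.25-fold lower. The call ended without control 1, 2 or 3 (adjusted p = 0.0664, 0.075 and 0.0668), without Sfpq-/- 1 (0.103) and without Sfpq-/- 3 (0.0531), and with only the 2 groups in the fit (0.0669). Its sign was kept throughout, and the log2 change ran from -0.44 to -0.27. RefSeq gives Bcl2 a span of 176.1 kb, the longest among the members, the next being Bcl2l1 with 75.1 kb.

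Of 12 probe sets of Bcl2, 11 had a negative log2 change in Sfpq-/-, with a median of -0.31, and 6 lay below the controls with no overlap (7.4% of all probe sets). None passed by itself in limma's test, while 4 had an unadjusted p under 0.05 (10.7% of all probe sets in either direction). The brightest, 5010010, was 12.69, 12.72 and 12.99 in controls and 12.22, 12.20 and 12.37 in Sfpq-/- (log2 change -0.54, SE 0.14, adjusted p = 0.113). Probe set 4834952, with 10.09, 10.09 and 10.24 in controls and 9.45, 9.74 and 9.38 in Sfpq-/-, had the most negative change of the gene (-0.61, SE 0.15, adjusted p = 0.0984). Probe set 4558502 was the exception, with a log2 change of 0.08.

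Bcl2l1, whose main product Bcl-xL keeps young neurons alive, was 8.75, 8.62 and 8.49 on the control arrays, 8.80, 8.87 and 8.69 on the Sfpq+/- arrays and 8.95, 8.95 and 8.85 on the Sfpq-/- arrays. The Sfpq-/- arrays lay above the controls and overlapped Sfpq+/-. The gene was 1.23-fold higher in Sfpq-/- than in control (log2 change 0.30, SE 0.09, limma adjusted p = 0.0483), a call just inside the threshold. It ended without control 2 (adjusted p = 0.138), control 3 (0.17), Sfpq+/- 1 (0.0721), Sfpq+/- 2 (0.0666), Sfpq+/- 3 (0.0598), Sfpq-/- 1 (0.157) and Sfpq-/- 2 (0.107). With the median of the probe sets as gene level the log2 change was 0.08 (adjusted p = 0.669).

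The probe sets of Bcl2l1 ran both ways, as the plot of probe set change against control level shows. Of 16, 12 had a positive log2 change and 4 a negative one, with extremes of 1.00 and -0.24. Of the positive ones, 5049156 had a control mean of 5.16 and passed the filter through the Sfpq+/- (6.11) and Sfpq-/- (5.92) means. None of the 16 passed in limma's test. An unadjusted p under 0.05 was found for 5, all higher, where 10.7% of all probe sets had one in either direction. Among the 8 with a control mean of 9 or less, 2 lay above the controls with no overlap. Among the 8 with a control mean above 9, 6 did, where 7.65% of all probe sets did. An example is 4660225, with 10.50, 10.47 and 10.34 in controls and 10.99, 10.91 and 10.74 in Sfpq-/-. The brightest, 5224755, had a log2 change of -0.02 and 4992365 one of -0.05. Bcl2l1 makes a long and a short product by alternative splicing. The annotation used here does not place probe sets within the gene, so these were not assigned to either form.

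**Figure D2:**
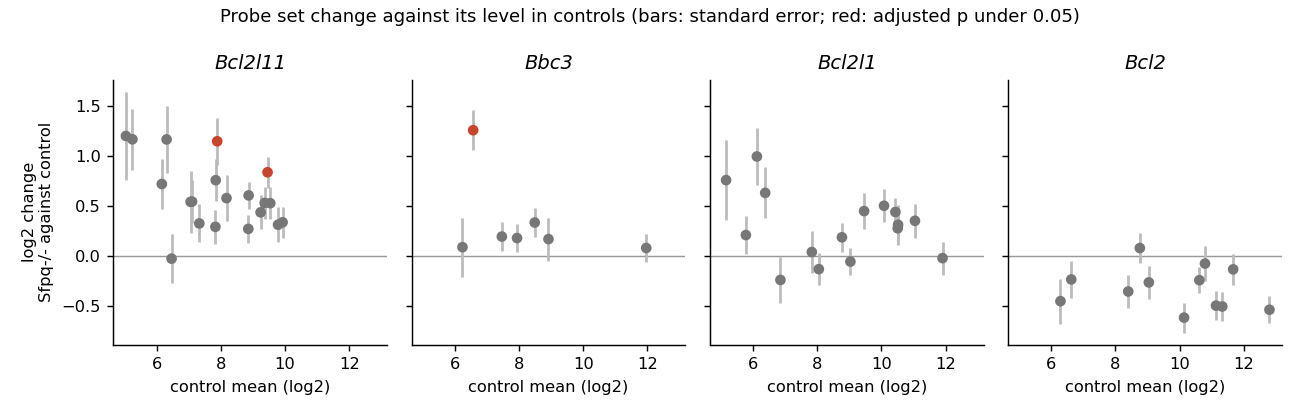
Log2 change of single probe sets in Sfpq-/- against control (vertical axis) against their mean log2 signal in the 3 controls (horizontal axis) for Bcl2l11, Bbc3, Bcl2l1 and Bcl2. Points are probe sets, bars their standard error from limma, and red marks an adjusted p under 0.05. Nearly all probe sets of Bcl2l11 had positive changes and nearly all of Bcl2 negative ones, while 1 probe set of Bbc3 (log2 change 1.26) stands apart from the rest of that gene.

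Mcl1, a short-lived anti-apoptotic protein that cortical progenitors depend on, was 10.11, 9.94 and 9.75 on the control arrays and 10.22, 10.12 and 9.87 on the Sfpq-/- arrays. These ranges overlapped, and the log2 change of 0.14 (95% interval -0.11 to 0.38, limma adjusted p = 0.519) was within the spread between arrays. Of its 11 probe sets none passed, none had an unadjusted p under 0.05 and none separated the groups.

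Bak1 encodes an effector that permeabilises the mitochondrial outer membrane. It was 8.87, 8.99 and 8.88 on the control arrays, 8.85, 8.79 and 8.81 on the Sfpq+/- arrays and 9.14, 9.18 and 9.10 on the Sfpq-/- arrays. The Sfpq-/- arrays lay above all others, but against control the difference of 0.23 (SE 0.07) missed the threshold (limma adjusted p = 0.0548). Its 9 probe sets all had a positive log2 change in Sfpq-/-, with a median of 0.24 and a range of 0.07 to 0.45. None passed by itself in limma's test, while 3 had an unadjusted p under 0.05 (10.7% of all probe sets in either direction).

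Among the other BH3-only genes none passed against control at the gene level. Bid, which death receptor signalling cleaves into its active form, was 8.20, 8.15 and 8.35 in controls and 8.60, 8.36 and 8.51 in Sfpq-/- (log2 change 0.26, SE 0.10, limma adjusted p = 0.122). Bbc3, the p53-inducible gene of Puma, was 8.11, 8.25 and 8.32 in controls and 8.60, 8.45 and 8.62 in Sfpq-/- (log2 change 0.33, SE 0.10, adjusted p = 0.0612). For both genes the Sfpq-/- arrays lay above the controls with no overlap. Pmaip1, the p53-inducible gene of Noxa, differed by 0.11 (95% interval -0.14 to 0.35, adjusted p = 0.639) and Bmf, a BH3-only gene linked to cytoskeletal stress, by 0.25 (95% interval -0.07 to 0.56, adjusted p = 0.336). In these 2 genes the arrays of the groups overlapped.

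Bbc3 had the largest change of any single probe set of the family. Probe set 4405084 was 6.86, 6.53 and 6.33 on the control arrays, 6.24, 6.82 and 6.74 on the Sfpq+/- arrays and 7.92, 7.91 and 7.66 on the Sfpq-/- arrays. All Sfpq-/- arrays lay well above all others, 2.39-fold above control in the mean (log2 change 1.26, SE 0.20, limma adjusted p = 0.0129). The call ended without control 2 (adjusted p = 0.0643), control 3 (0.0553) and Sfpq-/- 1 (0.0685). The other 6 kept probe sets of Bbc3 had log2 changes between 0.08 and 0.34. The brightest, 5587199, was 11.89, 12.08 and 11.93 in controls and 12.12, 11.84 and 12.18 in Sfpq-/-, which overlap.

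A test of each probe set against the mean of its own gene called 0 of the 95 member probe sets in Sfpq-/- against control, where 0.926% of 248590 probe sets were called in limma's test. At an unadjusted p under 0.05 it gave 7 higher and 10 lower, where 9.32% of all probe sets passed that threshold in either direction. Probe set 4405084 lay 0.93 above its gene (SE 0.19, adjusted p = 0.0675). It passed without control 1 (adjusted p = 0.03), with the stricter filter on dim probe sets (0.0453), with the median as gene level (0.0479) and with array weights (0.00454). Bmf probe set 4925175 went the other way. It was 6.74, 6.93 and 7.20 in controls and 6.78, 6.49 and 6.65 in Sfpq-/-, a log2 change of -0.31, while the other 5 kept probe sets of Bmf had positive changes. Its distance from its gene passed under 3 of these settings, the stricter filter (adjusted p = 0.0488), the median (0.0458) and array weights (0.0242). Bid also had 1 probe set against the rest: 4798120 differed by -0.40, while the other 7 were positive.

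Over all 95 probe sets of the 9 genes, 74 had a positive and 21 a negative log2 change in Sfpq-/- against control. The test called 3 higher (0.561% of all probe sets) and 0 lower (1.19%) in limma, and at an unadjusted p under 0.05 there were 28 higher and 4 lower (10.7% of all probe sets in either direction). All 4 of the latter were probe sets of Bcl2. Probe sets of a gene share its transcripts and are not replicates.

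**Figure D3:**
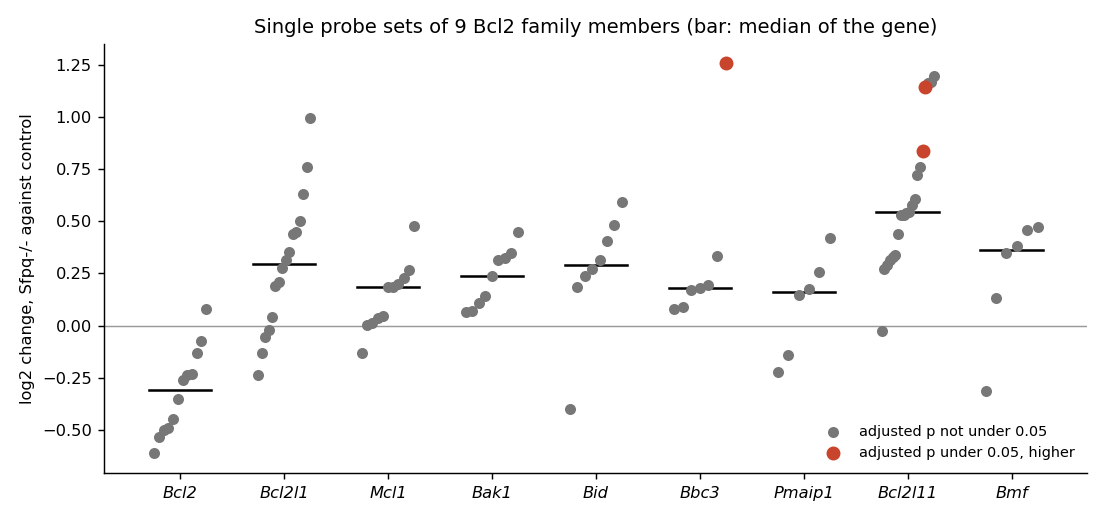
Log2 change of each of the 95 kept probe sets of the 9 members in Sfpq-/- against control, ordered within each gene, with the median of the gene as a bar. Red points passed limma's test over all probe sets (3 of 95). Only Bcl2 has a median below 0.

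In Sfpq+/- against control no member was called by limma, as no gene was (0% of 16854). At an unadjusted p under 0.05 there were 715 genes (4.24%), of which Bcl2l11 was the only member. Array weights, the replicate block and the other settings called no member either. Bcl2l11 differed by 0.25 (95% interval 0.01 to 0.48, adjusted p = 0.886) and its 3 Sfpq+/- arrays lay above the controls, as did those of 8.52% of all genes. Of its 20 probe sets 17 had a positive log2 change. Bak1 lay below the controls with no overlap (log2 change -0.10, 95% interval -0.25 to 0.06), as 3.99% of genes did. For Bcl2 the interval of the difference ran from -0.14 to 0.21, and for Bcl2l1 from -0.02 to 0.36. None of the 95 probe sets was called (0% of all probe sets), and 2 higher and 1 lower had an unadjusted p under 0.05 (4.49% of all probe sets). Of the 95, 7 lay above the controls and 7 below them with no overlap (5.27% and 5.3% of all probe sets).

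Sfpq-/- against Sfpq+/- is a second comparison of the same 3 Sfpq-/- arrays, so its values stand beside those against control and do not repeat them independently. Here 4 of 9 members were higher (4.58% of all genes) and 1 lower (7.25%), and at an unadjusted p under 0.05 there were 7 (22.6%). Arrays did not overlap for 5 members on the higher side (13.2%) and 1 on the lower side (13.6%). The called members were Bak1 (log2 change 0.33, SE 0.07, limma adjusted p = 0.00924), Bid (0.42, SE 0.10, adjusted p = 0.0163), Bbc3 (0.41, SE 0.10, adjusted p = 0.0215), Bcl2l11 (0.37, SE 0.11, adjusted p = 0.0471) and, on the lower side, Bcl2 (-0.35, SE 0.08, adjusted p = 0.0129). Bmf also lay above the Sfpq+/- arrays with no overlap, but its log2 change of 0.36 (SE 0.14, adjusted p = 0.152) missed the threshold. Bid was 7.92, 8.13 and 8.18 and Bbc3 7.94, 8.21 and 8.27 on the Sfpq+/- arrays, below all Sfpq-/- arrays. Bcl2l1, called against control, differed from Sfpq+/- by 0.13 (95% interval -0.06 to 0.32, adjusted p = 0.424). In the main setting Bak1, Bid and Bbc3 were not called against control, where their differences were 0.23, 0.26 and 0.33. Of the 17 alternatives tried for that comparison, Bak1 passed under 4, Bid under 1 and Bbc3 under 4. Against control, the log2 changes of Bak1, Bid and Bbc3 in Sfpq+/- were -0.10, -0.16 and -0.08, none of them called. The Sfpq+/- arrays overlapped the controls for Bid and Bbc3 but not for Bak1.

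The Bak1 call against Sfpq+/- was kept in all 9 fits that left out 1 array, but with the median of probe sets its adjusted p was 0.0546. The call of Bid ended without Sfpq+/- 1 (adjusted p = 0.0777), Sfpq-/- 1 (0.082) and with the median (0.106), and that of Bbc3 without Sfpq+/- 1 (0.087), Sfpq-/- 1 (0.0855) and Sfpq-/- 3 (0.0581). With the median of probe sets the log2 change of Bbc3 was 0.18 (adjusted p = 0.391), that of Bcl2l11 was 0.42 (0.184), and Pmaip1, at 0.28 (0.141) with the mean, was called at 0.58 (0.028). The call of Bcl2 ended without Sfpq+/- 2 (0.0554), Sfpq+/- 3 (0.0515) and Sfpq-/- 1 (0.0643). That of Bcl2l11 was kept only without Sfpq+/- 2 and without Sfpq-/- 3, and adjusted p ran up to 0.166 in the other 7. Without Sfpq-/- 1, all remaining arrays of this comparison were low in Xist. The log2 changes there were 0.39 for Bcl2l11, -0.32 for Bcl2, 0.36 for Bid and 0.39 for Bbc3, against 0.37, -0.35, 0.42 and 0.41 with all arrays. Probe set 4405084 of Bbc3 was the only member probe set called against Sfpq+/- (log2 change 1.23, adjusted p = 0.0133, against 0.425% of all probe sets called higher and 1.5% lower), and its call ended without Sfpq+/- 1 (0.0515) and Sfpq-/- 1 (0.069). Of the 95 member probe sets 29 lay above the Sfpq+/- arrays (7.95% of all probe sets) and 9 below them (8.97%) with no overlap, and 30 had an unadjusted p under 0.05 (11.2%). Probe set 4708257 of Pmaip1 was 6.24, 7.42 and 6.99 in Sfpq+/- and 7.93, 7.94 and 8.04 in Sfpq-/- (log2 change 1.09, adjusted p = 0.0958), but 7.51, 7.64 and 7.99 in controls.

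**Figure D4:**
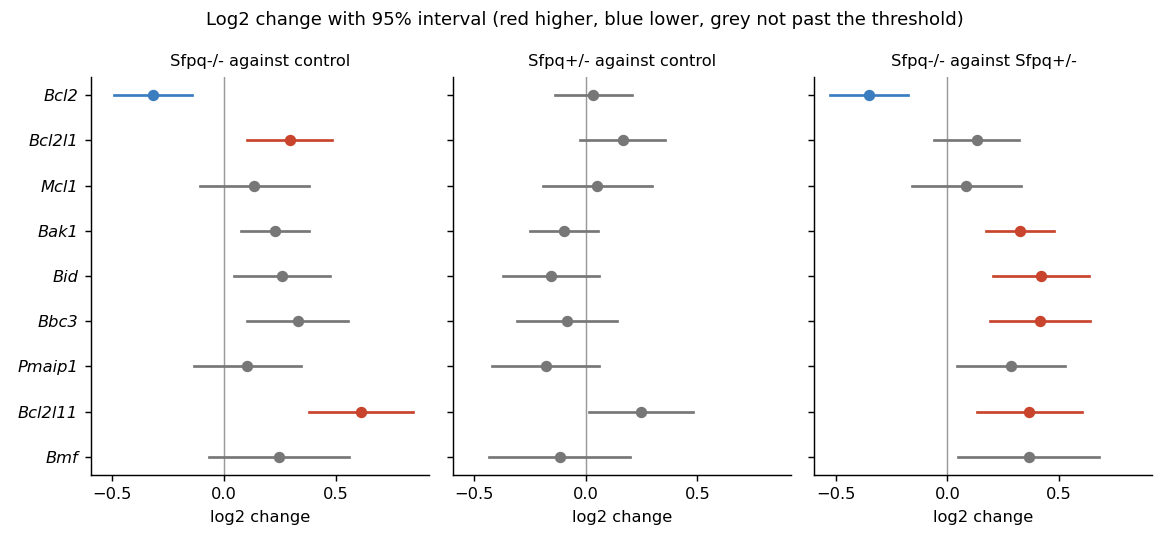
Log2 change of the 9 members with its 95% interval in the 3 comparisons, as labelled above the panels. Red marks members called higher, blue members called lower and grey members that did not pass limma's test. Bcl2l11 and Bcl2 were called in both comparisons of Sfpq-/-, and no member was called in Sfpq+/- against control.

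Genes around the family were measured in 6 lists, given here for Sfpq-/- against control. Of 10 measured genes in the list of other Bcl2 family and BH3-like genes, none passed in limma's test. An unadjusted p under 0.05 was found for 4, where 24.2% of all genes had one. The median log2 change was -0.01. Nearest to the threshold were the BH3-only gene Hrk (0.26, adjusted p = 0.0617) and the anti-apoptotic Bcl2l2 (0.26, adjusted p = 0.139). Of 14 genes of the apoptosome, the caspases and their inhibitors none passed (median 0.11). Unadjusted p was under 0.05 for 2, where it was for 24.2% of all genes. Those were the inhibitor of apoptosis Birc2 (0.27, adjusted p = 0.116) and the executioner caspase gene Casp6 (-0.25, adjusted p = 0.126). Among 14 mitochondrial and endoplasmic reticulum partners only the mitochondrial fission factor gene Mff rose (0.28, adjusted p = 0.0249), while the permeability transition gene Ppif differed by -0.17 (adjusted p = 0.214). The death receptor gene Tnfrsf10b rose (0.37, adjusted p = 0.0178), the only one of 16 genes in its pathway, and Tnfrsf21 differed by -0.22 (adjusted p = 0.124). The call of Mff ended without control 2, control 3, Sfpq-/- 1 and Sfpq-/- 2, and that of Tnfrsf10b without control 1, control 3 and Sfpq-/- 1.

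Of 24 measured regulators of the members 2 rose and 2 fell, where 5.98% of all genes rose and 6.12% fell. Mapk10, the neuronal JNK kinase gene that acts upstream of Bcl2l11 induction, was 9.70, 9.45 and 9.46 in controls and 8.62, 8.73 and 8.70 in Sfpq-/- (log2 change -0.85, SE 0.11, limma adjusted p = 0.000389). Jun, its transcription factor target, was 10.45, 10.59 and 10.59 in controls and 10.20, 10.35 and 10.19 in Sfpq-/- (-0.30, SE 0.08, adjusted p = 0.0295). Stat3, a factor known to activate Bcl2l1 and Mcl1, was 8.84, 8.80 and 8.89 in controls and 9.29, 9.28 and 9.32 in Sfpq-/- (0.45, SE 0.07, adjusted p = 0.000888). Foxo3, a forkhead factor known to activate Bcl2l11 and Bbc3, was 9.22, 9.30 and 9.19 in controls and 9.56, 9.46 and 9.47 in Sfpq-/- (0.26, SE 0.08, adjusted p = 0.047). None of these 4 genes had overlapping arrays. Mapk10 and Stat3 passed in all 9 fits that left out 1 array. Jun lost its call without control 2, control 3, Sfpq-/- 1 and Sfpq-/- 3, and Foxo3 lost it in each of the 9, with log2 changes from 0.23 to 0.30.

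The list of p53 targets had 26 measured genes, of which 10 rose and none fell, with a median of 0.15 (0.03 over all genes). The list was drawn up with earlier results of these arrays known, so its count is not independent evidence. Ccng1 was 10.75, 10.92 and 10.78 in controls and 11.78, 11.55 and 11.64 in Sfpq-/- (log2 change 0.84, adjusted p = 0.000103). Eda2r, a receptor of the TNF family, was 6.91, 6.72 and 6.67 in controls and between 7.89 and 8.52 in Sfpq-/- (1.37, adjusted p = 0.000121). Cdkn1a, which encodes the cell cycle inhibitor p21, rose by 0.52 on the log2 scale. The stress-induced Sestrin genes Sesn2 (0.67) and Sesn1 (0.32) rose as well, as did Phlda3 (0.56), Gadd45a (0.35), Ptpn14 (0.39), Aen (0.27) and Tnfrsf10b (0.37). The calls of Gadd45a (limma adjusted p = 0.046) and Aen (0.0487) were each kept in only 1 of the 9 fits that left out 1 array. Ccng1, Eda2r and Sesn2 passed in all 9. Without control 1 the count of called targets was 4, and without control 2 or without Sfpq-/- 1 it was 6. Among the listed genes that did not pass, Mdm2 had a mean of 9.70 in controls and 9.69 in Sfpq-/-. Casp6, also in this list, lay below the controls with no overlap. The p53 gene Trp53 itself had no gene level here. Of the family members known as p53 targets, Bbc3 and Pmaip1 did not pass at the gene level, as given above, and Bax was not analysed here.

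**Figure D5:**
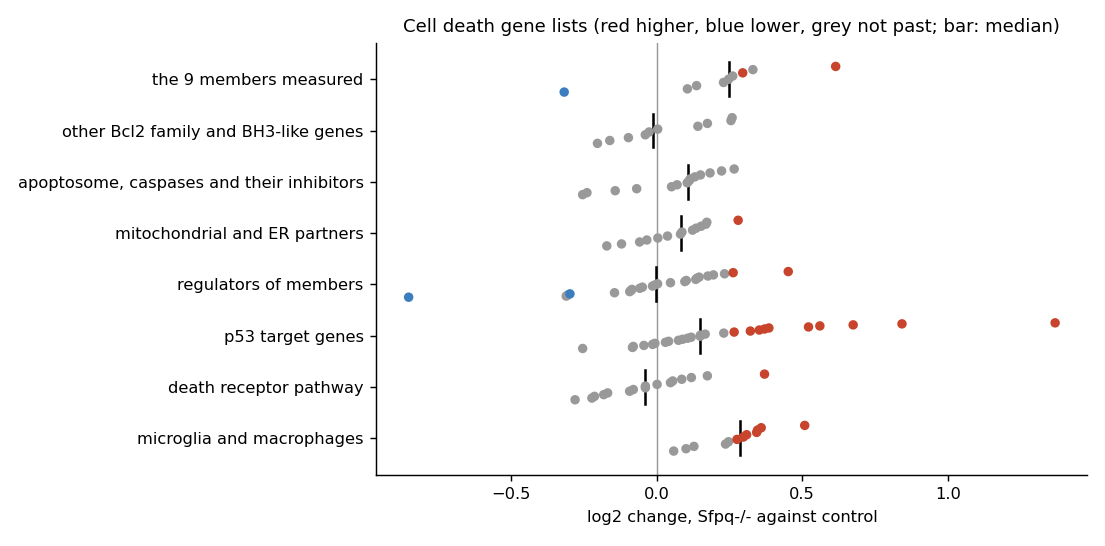
Log2 change in Sfpq-/- against control of the 9 members, of the genes of the 6 cell death lists and of the microglia and macrophage markers, 1 point per gene and a bar at the median of each list. Red marks genes called higher, blue genes called lower and grey genes that did not pass. The 10 called p53 targets reach a log2 change of 1.37, while no caspase, apoptosome or inhibitor gene was called. The p53 list was drawn up with earlier results of these arrays known, so its count is not independent evidence.

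The genes whose profile over the 9 arrays lay nearest to that of each called member were found by the root mean square difference of centred log2 levels. For Bcl2l11 they were Cnr1 (0.075), Timp1 (0.084) and Ppfibp1 (0.089), against a spread of Bcl2l11 itself of 0.28. For Bcl2 they were Sh3d19 (0.034), Rnf144a (0.042) and Tbc1d1 (0.042), against 0.17. For Bcl2l1 they were Hemk1 (0.0356), Arf3 (0.0365) and Wdr92 (0.0415), against 0.14. These are likenesses of pattern over 9 arrays.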

How the data were processed

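The 9 arrays were grouped by title, 3 for each genotype. The authors deposited a log2 signal for every probe set and array. Per the submitters' processing notes, Affymetrix Expression Console, version 1.2.0.20, was used. The log2 scale was read from the values. The sources used here do not give the background correction, normalization or genome build. Array medians were 5.65 to 5.70, no arrays were identical, and the number of arrays limits the precision. Gene symbols came from the platform annotation and were updated through RefSeq synonyms. Probe sets with several symbols (6684) were not used.

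Probe sets with a mean above 5.64 were kept, and genes needed at least 3. Genes, probe sets and each probe set's distance from its gene were fitted with limma 3.58.1 (R 4.3.3), 1 model with 3 group means, Benjamini-Hochberg adjustment over all features and a threshold of 0.05. The procedure was tested on simulated data. Named are all members, list genes that passed or came nearest, and the 3 genes nearest in profile to each called member. Members, lists, motifs and tests were chosen with earlier results of these data known. Alternatives were the filter, gene summary, normalization, trend, groups fitted, array weights, replicate block and each array left out.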

Additional observations from a re-analysis of the deposited data

How the results depend on the processing

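Among the results in Sfpq-/- against control, the rise of Bcl2l11 passed under all 17 alternatives, while Bcl2 passed under 11 and Bcl2l1 under 6 of the 17. In that comparison the count of called members was 1 with only the 2 groups in the fit, 6 with array weights, and 1 to 3 in the fits that left out 1 array, where it was 3 in the main setting. Called probe sets, 3 in the main setting, were 0 without a filter on dim probe sets, 8 with an intensity trend, 1 with 2 groups, 23 with array weights, 5 with the replicate block and 0 to 2 with 1 array left out. Calls over all probe sets moved too, from 11007 to 7161, 17658, 5837, 44057 and 10756 in the first 5 of these. Against Sfpq+/-, called members went from 5 to 3 without the filter, 2 with the median of probe sets (Bcl2 and Pmaip1, the latter not called in the main setting), 1 to 4 with 1 array left out, 7 with array weights (Pmaip1 and Bmf added) and 6 with the replicate block (Bmf added), and called probe sets from 1 to 0 without the filter, 7 with the trend, 11 with array weights and 0 to 2 with 1 array left out. Probe sets off their gene went from 0 to 2 with the stricter filter, 2 with the median, 5 with array weights (2303 to 13123 over all probe sets) and 0 to 1 with 1 array left out. Called pathway genes went from 15 to 33 with array weights and 8 to 14 with 1 array left out, and called p53 targets, 10 in the main setting, were 4 to 9 with 1 array left out. Over all genes, array weights called 4609 in place of 2040 against control and 3635 in place of 1994 against Sfpq+/-, and leaving out control 2 or Sfpq-/- 1 gave 1343 and 1311 against control. Fewer samples enter the fits with 2 groups or 1 array left out; otherwise the cause was not tested.

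Signs of small changes that were not called turned: in Sfpq+/- against control, Bbc3 was 0.0263 without the filter, 0.0012 with the median and from -0.15 to 0.0182 with 1 array left out, Bcl2 was -0.0483 with the median, and with 1 array left out Mcl1 ran from -0.0406 to 0.14, Bmf from -0.25 to 0.0358 and Bbc3 probe set 4405084 from -0.10 to 0.21; against Sfpq+/-, Mcl1 was -0.0273 with the median. With the replicate block as a covariate the adjusted p was 0.0218 for Bcl2l1, 0.0228 for Bcl2 and 0.0326 for Bbc3 against control, with 4 members called. Deviations of same-numbered samples from their group means correlated from -0.055 to 0.574 (median 0.248, 9 pairs), those of different numbers from -0.533 to 0.363 (median -0.135, 18 pairs). Not every pair was above 0.1, control 1 correlated best with another number, and the labels tie no numbers, so the samples were not treated as pairs; a shared source was not tested. How far above background the dim probe sets near 5.64 lay was not given.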
